A study of Mus musculus with 4 samples.

Results

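S100b and 5 genes of the nerve sheath, Sox10, Mbp, Pmp22, Prx and Gfap, were followed in salivary glands of mice with and without Myd88, the adaptor protein of most Toll-like receptors. S100b was chosen by its lower signal on the Myd88-null arrays in this same comparison, and the other 5 were named beside it as Schwann cell genes. The values of all 6 are therefore described with no test, and the question was whether genes of the nerve sheath shared the low S100b signal. The 6 genes were found by name among 34844 gene names, on 11 probes, and 5 of them (8 probes) were bright enough to be among the 22312 genes compared. Total RNA from submandibular gland together with sublingual gland was hybridized as Cy3-labelled cRNA to Agilent mouse arrays with 1 colour, 1 array for each of 4 samples. The mice were female, 10 weeks of age and of a strain that the sample records spell C57/BL6 and the study C57BL/6. The labels gave 2 samples the genotype Myd88-null and 2 the genotype wild type, and by the study's methods both kinds of mice were homozygous offspring of heterozygous parents. The study's legends name submandibular gland alone and more mice per genotype than there are arrays. Whether a sample came from 1 mouse or from several was not given, so that the errors below measure only the spread between arrays, which may be technical.

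Schwann cells wrap the axons of peripheral nerves, either singly with a myelin sheath or in bundles without one, and the nerves that enter salivary glands are largely autonomic and poor in myelin. Sox10 is the transcription factor that keeps Schwann cells in their lineage, Mbp and Pmp22 are proteins of compact myelin, Prx (periaxin) links the outer Schwann cell membrane to the matrix around it, and Gfap is an intermediate filament of glia that do not form myelin. S100b, a small calcium-binding protein, is the usual marker of Schwann cells in tissue sections, but adipocytes, chondrocytes and melanocytes make it too.

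Signals are given as log2 processed signal minus the 75th percentile of the array, so that 0 is the brightness below which 75% of spots lie. Detection differed between arrays of 1 genotype. Myd88-null arrays 1 and 2 had 52.2% and 68.4% of the 55681 probes well above background, and wild-type arrays 1 and 2 had 74.1% and 55.1%. Dim genes were thus measured less well on Myd88-null array 1 and wild-type array 2. The Myd88 probe itself gave 1.51 and 1.41 on the Myd88-null arrays and 1.15 and 1.07 on the wild-type arrays. Signal was present under both labels and higher under the label Myd88-null. The probe begins at base 1629 of the transcript, and since the deleted part was not given in the sources used here, the signal does not check the labels, and "Myd88-null array" below means an array with that label.

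The S100b signal was -0.54 and -0.30 on the Myd88-null arrays and 0.98 and 1.12 on the wild-type arrays. Both Myd88-null arrays were low, both wild-type arrays were high, and the groups did not overlap. The difference was -1.47 ± 0.14 (SE by limma, n = 2 arrays each), a 2.77-fold lower signal, against a pooled SD of 0.14 between arrays of 1 group. Before scaling, the processed signal was 176 and 192 on the Myd88-null arrays and 632 and 584 on the wild-type arrays, and the spot was well above background on all 4. When arrays of like detection were set side by side, the difference was -1.66 for Myd88-null array 1 against wild-type array 2 and -1.28 for Myd88-null array 2 against wild-type array 1. Of the 22312 genes, 449 had a lower difference than S100b, which placed it among the lowest 2.02%. The array carries S100b on 1 probe in 1 spot, at chr10:75723783-75723842 on the plus strand of NCBI37/mm9, from base 1379 of its transcript, so that no second probe could be set beside it. In whole glands, fewer cells that make S100b and less S100b RNA in each cell cannot be told apart.

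The bases before the transcription start are shown for S100b and Prx, the 2 members that were lower with the groups apart. RefSeq start sites were at hand for 4 of the 6 members, and each stretch is the 250 bases before the start, 5′ to 3′ on the plus strand of GRCm38.p6, at chr10:76253586-76253835 for S100b and at chr7:27499074-27499323 for Prx. Capitals mark CCAAT or its reverse complement ATTGG, letters that 33.8% of 32851 such stretches of mouse genes hold on either strand.
S100b: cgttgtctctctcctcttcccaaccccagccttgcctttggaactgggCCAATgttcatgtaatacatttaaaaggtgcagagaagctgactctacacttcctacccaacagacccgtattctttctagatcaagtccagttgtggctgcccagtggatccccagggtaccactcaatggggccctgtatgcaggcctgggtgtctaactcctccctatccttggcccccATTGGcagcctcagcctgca
Prx: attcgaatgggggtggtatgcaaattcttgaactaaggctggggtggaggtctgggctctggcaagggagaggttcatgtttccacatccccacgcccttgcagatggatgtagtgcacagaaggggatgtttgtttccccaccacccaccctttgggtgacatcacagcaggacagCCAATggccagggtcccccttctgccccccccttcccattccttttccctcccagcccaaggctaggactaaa
The letters began 202 and 20 bases before the start of S100b and 73 bases before that of Prx. Pmp22, which overlapped between the groups, held ATTGG in 2 of its 4 entries, 47 and 219 bases before the start. The letters ACAAAG and ACAATG, which SOX proteins can bind, stood in none of the 7 entries of these members on either strand, while 16.5% and 10.7% of all stretches held them. The letters TATAAA, held by 12.4%, were likewise in none. A match or its lack describes these 250 bases only.

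Sox10, the lineage factor, gave 3.68 and 3.69 on the Myd88-null arrays and 3.53 and 3.85 on the wild-type arrays. The Myd88-null values lay between the wild-type values, so that the groups overlapped, and the difference was -0.0029 ± 0.15 (SE, n = 2 each). Its 1 probe lies at chr15:78985518-78985577 on the minus strand of NCBI37/mm9 and was well above background on all 4 arrays. Acinar and myoepithelial cells of salivary glands also make Sox10, and the array does not separate their share from that of Schwann cells. The spread of Sox10 lay within the wild-type pair, with an SD of 0.23 there and 0.0050 between the Myd88-null arrays.

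Mbp, which holds the cytoplasmic faces of the myelin membrane together, gave 3.04 and 2.93 on the Myd88-null arrays and 3.06 and 2.96 on the wild-type arrays. The groups overlapped, and the difference was -0.026 ± 0.11 (SE, n = 2 each). This probe begins at base 4653 of its transcript. Another Mbp probe, from base 375, gave -2.03 and -1.72 on the Myd88-null arrays against -1.75 and -2.05 on the wild-type arrays. The probe from base 916 gave -2.68 and -2.03 against -2.04 and -2.67. Both overlapped between the groups, with differences of 0.025 and 0.0038, and on both the arrays with fewer detected probes were the lower ones. The 3 Mbp probes were well above background on all 4 arrays, and on none did the groups stand apart.

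Pmp22, a membrane protein of compact myelin that many epithelia and fibroblasts also make, gave 1.42 and 1.15 on the Myd88-null arrays and 1.58 and 1.40 on the wild-type arrays with its brighter probe. Myd88-null array 1 lay just above wild-type array 2, so that the groups overlapped. The difference was -0.21 ± 0.15 (SE, n = 2 each), and it ranged from -0.34 to -0.069 with an array left out. Its other probe, from base 614 in place of base 1741, gave 0.52 and 0.57 against 0.48 and 0.49. There the Myd88-null arrays were the higher ones, by 0.065, and the 2 probes of Pmp22 thus differed in sign.

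Prx gave -1.09 and -1.34 on the Myd88-null arrays and -0.66 and -0.92 on the wild-type arrays. Both Myd88-null arrays were below both wild-type arrays. The difference was -0.42 ± 0.16 (SE, n = 2 each), a 1.34-fold lower signal, against a pooled SD of 0.18. The nearest arrays of the 2 groups, Myd88-null array 1 and wild-type array 2, lay 0.17 apart on the log2 scale, and the same 2 arrays differed by 1.66 for S100b. Its 1 probe lies at chr7:28304999-28305058 on the plus strand of NCBI37/mm9, and 10.0% of the genes compared had a difference as low as that of Prx.

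Gfap had 3 probes and none could be compared. The first gave -3.82 on Myd88-null array 2 and -3.69 on wild-type array 1, where it was well above background, and it was not well above background on the other 2 arrays. The other 2 Gfap probes were not well above background on any array. Gfap thus had no difference to set beside that of S100b.

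**Figure D1:**
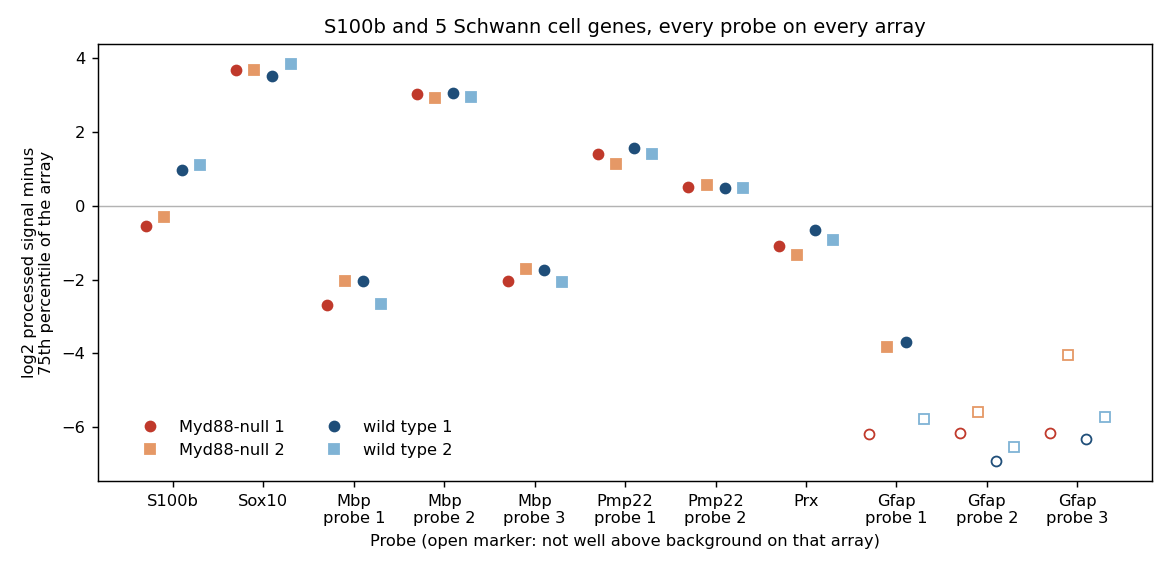
Log2 processed signal minus the 75th percentile of the array for each of the 11 probes of the 6 genes, 1 marker for each of the 4 arrays (red and orange, Myd88-null; dark and light blue, wild type), with open markers where a spot was not well above background. S100b (-0.54 and -0.30 against 0.98 and 1.12) and, by less, Prx (-1.09 and -1.34 against -0.66 and -0.92) stand apart between the groups, whereas Sox10, Mbp and Pmp22 overlap between the groups or differ little.

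Of the 5 members compared, 2 (S100b and Prx) were lower with the groups apart, where 18.7% of all genes compared were lower in that way, and 0 were higher with the groups apart, where 33.2% of all genes were. With each array scaled by its median, a setting added after the data were seen, Prx overlapped between the groups and S100b alone was apart, whereas with quantile normalization or the 75th percentile over detected probes Pmp22 joined them and 3 were apart. No gene passed an adjusted p of 0.05 with limma (0% of 22312), while 1525 genes (6.83%) were lower and 2190 (9.82%) were higher at an unadjusted p under 0.05. By trended and robust moderation 482 genes passed the adjusted threshold, and by the methods' t-test 1 did. Scaling by the median turned the split at the unadjusted threshold to 755 lower and 240 higher. By mean, all 5 members compared were lower, and remained so under every scaling tried, Mbp and Sox10 by less than their pooled SDs of 0.076 and 0.16 in the values given above. With an array left out, Mbp ranged from -0.086 to 0.033 and Sox10 from -0.17 to 0.16, so that neither kept its sign.

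With each gene centred on its own mean, the root mean square distance over the 4 arrays between any 2 of the other members ranged from 0.11 (Mbp and Pmp22) to 0.31 (Prx and Sox10). S100b and Sox10 were lower on array 1 than on array 2 of both groups.

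Further Schwann cell genes went both ways. Of 14 further genes of Schwann cells and satellite glia, 12 were compared, of which 7 were lower and 5 higher, with a median difference of -0.11 beside 0.062 over all genes, of which 40.4% were lower. That median changed sign to 0.035 with normexp background correction. With the groups apart, 3 of the 12 were lower and 2 higher, where 18.7% and 33.2% of all genes compared were. Gfra3, the receptor subunit for artemin, gave 0.012 and 0.041 on the Myd88-null arrays and 0.56 and 0.87 on the wild-type arrays. It did not overlap between the groups and had the lowest difference of this list, -0.68 ± 0.15 (SE). Erbb3, the neuregulin receptor on which Schwann cells depend, gave -3.66 and -2.39 against -2.73 and -3.93, with overlap and the highest difference of the list, 0.31 ± 0.65. Ngfr, the low-affinity neurotrophin receptor of Schwann cells without myelin, gave 0.24 and -0.037 against 0.071 and 0.73 and overlapped. The summed linear signal of the list was 13.7 and 12.6 on the Myd88-null arrays and 12.7 and 13.7 on the wild-type arrays, with Cadm4 as its most abundant gene, so that the sums overlapped.

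Of 18 further genes of peripheral myelin, 16 were compared, 6 lower and 10 higher, with a median of 0.22, which was 0.060 without Myd88-null array 1 and 0.099 without wild-type array 2. With the groups apart, 3 were lower and 7 higher, where 18.7% and 33.2% of all genes compared were. Cnp, an enzyme of myelin cytoplasm, gave -0.51 and -0.47 on the Myd88-null arrays and 0.50 and 0.23 on the wild-type arrays, without overlap, a difference of -0.85 ± 0.14 (SE). Egr2, the transcription factor that drives myelination, gave -2.99 and -2.37 against -1.31 and -2.19, a difference of -0.93 ± 0.40 and the lowest of the list. Cldn19, a junction protein of Schwann cells, was not well above background on either Myd88-null array and was at least 1.40-fold lower there. The summed signal of the myelin list was 63.2 and 61.2 on the Myd88-null arrays and 50.02 and 54.9 on the wild-type arrays, higher under the label Myd88-null. The probe of Gjb1, a gap junction protein that acinar cells also make, gave 67.3% of that summed signal. It gave 5.42 and 5.41 against 5.01 and 5.20, a difference of 0.31 ± 0.12.

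Axons and neurons were read by 12 genes, of which 8 were compared. The neurofilament genes Nefl, Nefm and Nefh, and Scn9a, were too dim to be among them. All 8 were higher by mean, with a median of 0.25, although 1 of the 8 turned lower with quantile normalization. With the groups apart 2 of them were higher, where 33.2% of all genes compared were. Snap25, a synaptic vesicle fusion protein and the most abundant of the list, gave 5.15 and 5.26 on the Myd88-null arrays and 4.75 and 5.10 on the wild-type arrays, a difference of 0.28 ± 0.17. Stmn2, a protein of growing axons, gave -0.36 and -1.72 against -1.03 and -1.22 and overlapped. The summed signal of the list was 39.4 and 40.6 against 29.7 and 36.7, of which the signal of the Snap25 probe alone made up 92.2%. Without Myd88-null array 1 the median was 0.039, with 4 of the 8 genes lower, without wild-type array 2 it was 0.12, with 3 lower, and without Myd88-null array 2 it was 0.59.

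Genes of autonomic neurons went both ways, with 9 of 14 compared, 5 lower and 4 higher, and a median of -0.039. Gfra2, the neurturin receptor subunit of parasympathetic neurons, gave -0.45 and -1.19 on the Myd88-null arrays and 0.18 and -0.09 on the wild-type arrays, a difference of -0.87 ± 0.30. Ret, its signalling partner and the most abundant of the list, gave 0.52 and 0.52 against 0.88 and 1.49. Vip, a secretomotor peptide, was higher, with -1.02 and -1.26 against -1.91 and -3.03. With the groups apart, 2 of the 9 (Gfra2 and Ret) were lower and 1 (Vip) higher, where 18.7% and 33.2% of all genes compared were. Th, the rate-limiting enzyme of noradrenaline synthesis, gave 0.49 and 0.22 against 0.39 and 0.53 and overlapped.

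**Figure D2:**
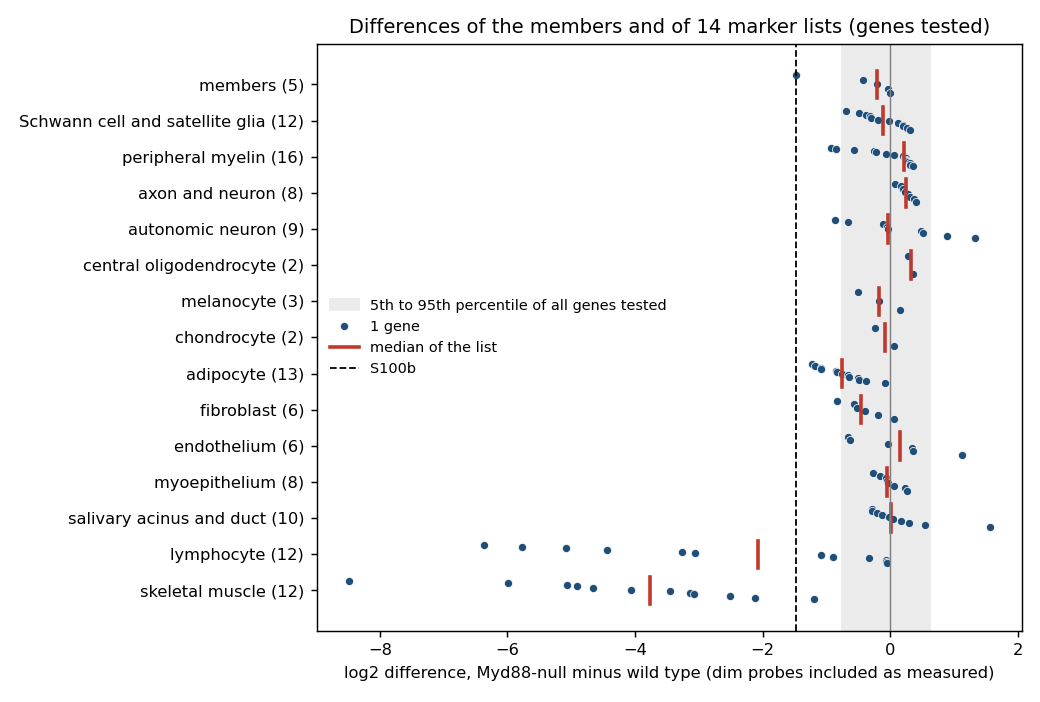
Log2 difference of Myd88-null minus wild type for each gene compared (blue points), by list, with the median of each list (red bar), the S100b difference (dashed line, -1.47) and the span from the 5th to the 95th percentile of all 22312 genes (grey). The medians of the Schwann cell, myelin and axon lists are -0.11, 0.22 and 0.25, within the grey span. The fibroblast (-0.46), adipocyte (-0.76), lymphocyte (-2.07) and skeletal muscle (-3.76) medians lie to the left of them, with dim probes as measured.

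The genes whose 4 values lay nearest to those of S100b were Elovl6, at a root mean square distance of 0.081, a transcript without a symbol at 0.087, Tmem45b at 0.11, 2010003K11Rik, which was not well above background on 1 Myd88-null array, at 0.12 and Ccne1 at 0.12. Their differences ran from -1.65 to -1.24. With 4 arrays this distance includes the group difference by which S100b was chosen, so that nearness is a description and no test of a shared cell type. Elovl6, an enzyme that lengthens fatty acids, gave 0.35 and 0.61 on the Myd88-null arrays and 1.73 and 2.09 on the wild-type arrays, a difference of -1.43. Ccne1, a cyclin of the start of DNA replication, gave -1.98 and -1.83 against -0.72 and -0.62. None of the 5 belongs to the marker lists, and the list gene nearest to S100b was Dgat2, which makes triglycerides, at a distance of 0.14 and 12th from S100b among all genes. Pparg, the adipocyte transcription factor, followed at 0.20. The nearest fibroblast gene, Lum, was at 0.34, the nearest myelin gene, Cnp, at 0.35 and the nearest Schwann cell gene, Gfra3, at 0.41. Of all genes, 1.22% were as near to S100b as Cnp and 2.24% as near as Gfra3.

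**Figure D3:**
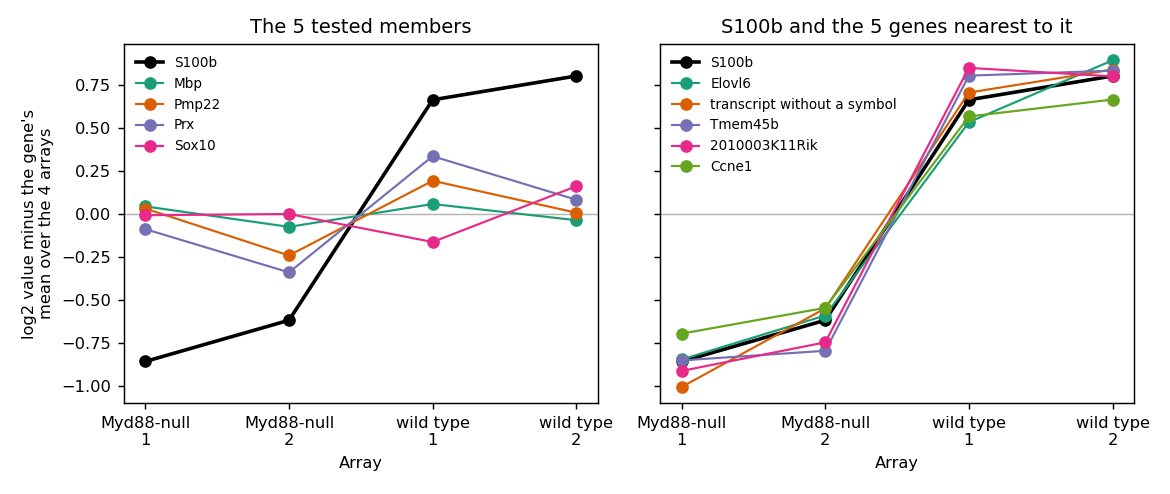
Log2 values on the 4 arrays minus each gene's own mean, for the 5 members compared (left) and for S100b with the 5 genes nearest to it (right); lines join the values of 1 gene and imply no order of arrays. S100b steps between the Myd88-null and the wild-type arrays, and the other 4 members stay within 0.34 of their means.

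Adipocytes, which also make S100b, were read by 14 genes, although the records of the samples state that fat, connective tissue and lymph nodes had been dissected away. Of all genes compared, 40.4% were lower, 18.7% lower with the groups apart and 6.83% lower at an unadjusted p under 0.05. Of the 13 adipocyte genes compared, 13 were lower, 11 of them with the groups apart, with a median of -0.76, and 7 were lower at that p. The median was -0.46 without Myd88-null array 1 and -1.14 without Myd88-null array 2, and with an array left out the count at that p ran from 3 to 11. Dgat2 gave 4.29 and 4.70 on the Myd88-null arrays and 5.68 and 5.77 on the wild-type arrays, a difference of -1.23 ± 0.18. Pparg gave 0.92 and 1.26 against 2.02 and 2.51, a difference of -1.17 ± 0.24. Neither overlapped between the groups. Fabp4, a fatty acid carrier and the most abundant of the list, gave 6.50 and 7.17 against 7.61 and 7.73, and Adipoq, the hormone adiponectin, gave 3.20 and 3.96 against 4.35 and 4.32. The summed signal of the adipocyte list was 222 and 321 on the Myd88-null arrays and 449.7 and 459.7 on the wild-type arrays. Retn (resistin) gave 1.64 and -0.067 against 1.11 and 0.63, overlapped, and lay farther from S100b than most genes. Lep (leptin) was not well above background on any array. The part of adipocytes in the S100b difference was not tested.

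The other cell types that make S100b gave few signals. Of 8 chondrocyte genes 2 were compared, 1 lower and 1 higher, with sums of 0.258 and 0.491 on the Myd88-null arrays and 0.428 and 0.302 on the wild-type arrays and Comp as the most abundant. Col2a1, the defining collagen of cartilage, was not well above background on any array. Of 7 melanocyte genes 3 were compared, 2 lower and 1 higher, with sums of 0.598 and 0.834 against 0.872 and 0.699 and Pmel as the most abundant. Dct, an enzyme of melanin synthesis, gave -2.33 and -2.40 against -1.76 and -1.96, without overlap. Of 5 genes of central oligodendrocytes, Mog and Mobp were compared and both were higher, with a median of 0.32, while Olig1, Olig2 and Opalin were not well above background on any array.

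Many genes of muscle, lymphocytes and fibroblasts were lower on the Myd88-null arrays, 0 of them past the adjusted threshold, and whether their signals came from within or around the glands was not tested. All 12 skeletal muscle genes compared of 13 were lower with the groups apart, as were 18.7% of all genes compared. Of the 12, 4 were below background on both Myd88-null arrays, and Myh1 and Tnnt3 on 1. These passed the filter through the wild-type arrays alone, so that their being lower was partly set by the filter. The median was -3.43 with the 4 set at their bound and the others at their own values. Summed signals were 3.58 and 3.62 on the Myd88-null arrays and 23.7 and 131 on the wild-type arrays. Acta1 was the most abundant by its mean log2 value, although Myh4, Tnnc2 and Tnni2 were brighter on both wild-type arrays. Of the 12 lymphocyte genes all were lower by mean and 9 with the groups apart, with a median of -1.98 taken in the same way and sums of 14.6 and 14.02 against 33.8 and 23.4, with Cd4, which overlapped between the groups, as the most abundant. The study, by contrast, counted more B cells in submandibular glands of male Myd88-null mice by flow cytometry. Of 6 fibroblast genes 5 were lower with the groups apart, with a median of -0.46, while Dcn, the most abundant, overlapped, and Col1a1, a chain of fibrillar collagen, gave 3.33 and 3.40 against 3.91 and 3.95. The part of these tissues in the S100b difference was not tested.

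Of 10 genes of salivary acini and ducts 5 were lower and 5 higher, with a median of 0.019. With the groups apart 2 of these were lower and 4 higher, where 18.7% and 33.2% of all genes compared were. At an unadjusted p under 0.05, 3 of the 10 were higher, where 9.82% of all genes were. The sums were 4607 and 4464 on the Myd88-null arrays and 3293 and 3582 on the wild-type arrays, with Dcpp1 as the most abundant. Of 8 myoepithelial genes 5 were lower and 3 higher, with a median of -0.042, and of 6 endothelial genes 3 were lower and 3 higher, with a median of 0.16. Smgc, a secreted mucin-like protein of the salivary glands, was the highest of these by its difference of 1.57 ± 0.14, with 10.08 and 9.95 on the Myd88-null arrays against 8.33 and 8.56.

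**Figure D4:**
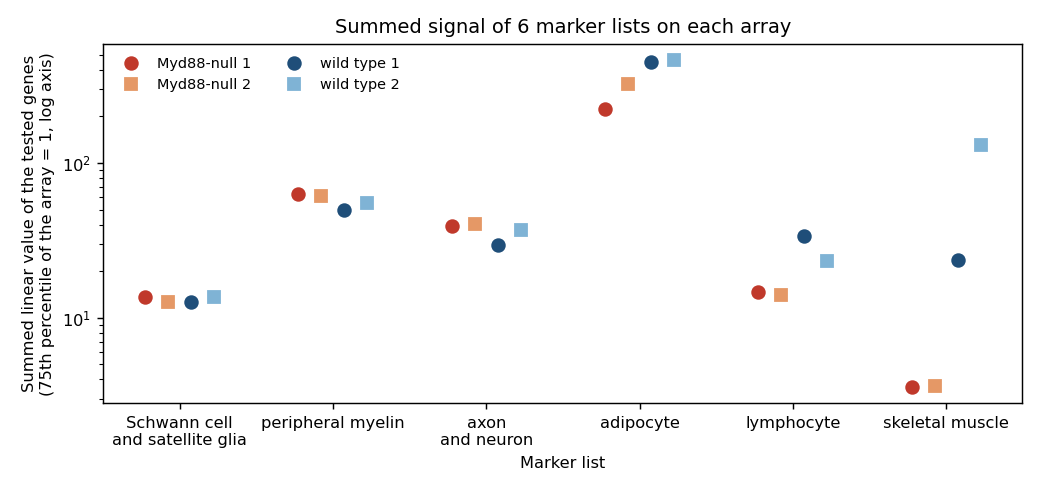
Summed linear signal of the genes compared in 6 marker lists on each array (log axis, with the 75th percentile of the array as 1). The Schwann cell sums overlap between the groups (13.7 and 12.6 against 12.7 and 13.7), the myelin and axon sums, made up mostly of Gjb1 and Snap25, are higher on the Myd88-null arrays, and the adipocyte sums are lower there (222 and 321 against 449.7 and 459.7). The lymphocyte and skeletal muscle sums are lower on the Myd88-null arrays too.

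Of 17 S100 genes on the array 14 were compared, S100b itself included, 10 lower and 4 higher, with a median of -0.18. With the groups apart 5 were lower and 3 higher, where 18.7% and 33.2% of all genes compared were. S100a9, a calcium-binding protein of neutrophils, gave -2.68 and -1.77 on the Myd88-null arrays and -0.29 and -1.27 on the wild-type arrays, a difference of -1.45 ± 0.50. The groups did not overlap, and its pooled SD was 0.67, against 0.14 for S100b. S100a8, its partner, was lower too and not well above background on Myd88-null array 1. The study reported both as lower in its Myd88-null mice, by array and by quantitative PCR, and the rest of the family as not affected by array. Its text does not name S100b. S100a5 was higher, with 1.97 and 1.72 against 0.54 and 0.76. S100a6, which Schwann cells and fibroblasts make, gave 4.20 and 3.99 against 4.44 and 4.58, a difference of -0.42 ± 0.13.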

How the data were processed

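Scanner output of 4 arrays was used. The deposited processed signal is a spot intensity from which the authors' software, Feature Extraction 10.7.3.1, had removed background and spatial trends, with no scaling between arrays. Log2 values of non-control spots were set against their 75th percentile on the same array. Outlier spots were left out and spots of a probe averaged. Probes were compared if, in either genotype, both arrays had over a share of 0.5 of their spots well above background, and each gene was read by its brightest such probe. Differences and SEs came from limma 3.58.1 (lmFit, eBayes; R 4.3.3). Adjustment followed Benjamini and Hochberg, and the fit was tested on simulated data. An exact permutation test of 2 against 2 arrays cannot go below 0.333. A bound was taken only where both arrays of 1 genotype were below background. It sets such a probe to the higher of its own value and the lowest signal detected on the array. Named genes are the members, marker genes (the most abundant and the extremes of a list, and others), S100 genes, Myd88 and the 5 genes nearest to S100b. The most abundant gene of a list is the one with the brightest probe. Brightness also depends on the probe, so that shares of a sum are shares of signal and not of RNA. The members and the 14 lists were chosen with earlier results of these data known. Probe coordinates are those of the files, and upstream bases are from RefSeq (GRCm38.p6). Alternatives were 13 planned and 2 added settings. The deposited series-wide table was left aside, since its columns could not be matched to samples. Some genes of the myelin list are not reported singly here.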

Additional observations from a re-analysis of the deposited data

How the results depend on the processing

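There were 13 planned settings and 2 added after the data were seen, and member differences were computed in 13 of them. The S100b difference ran from -1.59 to -1.35 when each array was left out in turn and was -1.22 with normexp background correction. Settings of the filter, of probe averaging and of blocks could not move it. S100b has 1 probe, well above background on all 4 arrays, and the blocks were balanced. Over the 13 settings Mbp ranged from -0.086 to 0.033, Pmp22 from -0.34 to -0.069, Prx from -0.55 to -0.27 (normexp) and Sox10 from -0.17 to 0.16. The count of genes past the adjusted threshold, 0 in the report, was 80 with normexp, 482 with trended and robust moderation, 1 with the methods' t-test (2935 at an unadjusted p under 0.05) and 402 with median scaling, 333 lower and 69 higher. The cause was not tested. With each array left out in turn it was 0, and from 2 to 4 members were lower with the groups apart, fewer arrays making this easier, while median scaling left 1. The Schwann cell median (-0.11) was 0.035 with normexp, 0.051 without a filter on dim probes, -0.19 with detection required on all 4 arrays, -0.17 with quantile normalization, -0.15 with the percentile over detected probes, -0.16 with median scaling, and -0.16 to -0.065 with an array left out. The myelin median (0.22) was 0.15 with normexp, 0.16 with quantile normalization, 0.16 with median scaling, and 0.060 to 0.22 with an array left out. The axon median ranged from 0.039 to 0.59 and the adipocyte median from -1.14 to -0.46 with an array left out. With the replicate number as a block, which cannot move a difference in this balanced design, 0 genes passed. At an unadjusted p under 0.05, 1172 were then lower and 1238 higher. Deviations of same-numbered arrays had r = -0.37 across genes, and pairing them crosswise as a block gave 0 genes past the adjusted threshold. Each genotype had 2 arrays on 1 slide, S100b was read by 1 spot, and Gfap was below the brightness that could be compared.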
